A study of Mus musculus with 6 samples.

Results

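The proteins that choose and cut splice sites were followed as 3 gene classes in MEL cells induced to make red cells: SR proteins (symbols that begin with Srsf and a digit), hnRNPs (symbols that begin with Hnrnp) and Snrp proteins (symbols that begin with Snrp). Members were taken by these symbol patterns alone, leaving out Hnrnpd and a pseudogene, and the transcript with the highest mean count stood for each gene. The patterns gave 42 of the 23896 genes that could be named, of which 11 were SR proteins, 19 hnRNPs and 12 Snrp proteins. MEL cells are a mouse erythroleukemia line held at an early erythroid stage, so all groups share the genotype of 1 transformed line. Groups were cells before induction (day 0) and cells grown with 2% DMSO for 2 days (day 2) or 4 days (day 4), with 2 cultures of each. No cultures kept without DMSO to day 2 or day 4 were analysed here, and DMSO and time in culture cannot be told apart.

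SR proteins bind exonic enhancers through RNA recognition motifs and draw the splicing machinery to nearby sites through tails rich in arginine and serine. The hnRNPs coat nascent transcripts and often work against SR proteins, silencing sites they cover. Snrp proteins are parts of the small nuclear ribonucleoproteins (snRNPs) that make up the spliceosome itself: the Sm proteins form a ring on the spliceosomal RNAs, and others belong to the U1 particle, which reads the 5′ splice site, or the U2 particle, which binds the branch point. In late erythroblasts splicing patterns change widely while the nucleus condenses, which is why the supply of these regulators is of interest in this lineage.

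Libraries held from 35294930 to 53899476 counts on transcripts. Transcripts of 1 gene can hold near-identical counts (10475 to 10480 for those of Hnrnpc in replicate 1 of day 0). A read can thus be counted on several transcripts, and these totals are not numbers of reads. Reads on no annotated feature, as a share of themselves plus the counts on transcripts, made up 50.5% and 54.1% at day 0. This share was 53.8% and 52.7% at day 2, and 58.1% and 58.4% at day 4. Its part in the results was not tested. Of 10 erythroid marker genes, 9 were called higher at day 4 than at day 0 and 1 (Klf1) lower, and their summed level went from 1012 to 1058 CPM (counts scaled to library size) at day 0 to 17604 to 19701 CPM at day 4. Myeloid and mast cell markers summed to 108 to 129 CPM at day 0, mostly from Spi1, and to 8.93 to 13.8 CPM at day 4, with Mcpt8 at 0 in nearly every library, and their part in the results was not tested. Fibroblast markers stayed at or below 8.3 CPM in every library and lymphoid markers at or below 0.172 CPM. Counts are shares of each library's RNA, so fewer cells that express a gene and less of its RNA per cell cannot be told apart. The 2 cultures of a day are the only replication, and p-values set differences between days against a spread estimated over all 6 libraries. Srsf12 and Snrpn were listed at 0 in all 6 libraries, as is the ubiquitous Tmsb4x, so an entry of 0 is not read as absence; the other 40 members passed the filter on low counts. A count was called different between days at an adjusted p below 0.05 in an edgeR fit over all transcripts.

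At day 4, most members were lower than at day 0. Of the 40 tested members, 31 were called lower, 2 were called higher (Srsf5 and Hnrnph2) and 7 were not called. Over the 12381 tested genes, 36.4% were called lower and 35.5% higher. The median log2 fold change of the members was -0.97, with a range from -2.17 (Snrpa1) to 0.96 (Srsf5), beside a median of -0.02 over all tested genes. By class, 5 of 10 SR proteins were called lower with a median log2 fold change of -0.35, 16 of 19 hnRNPs with a median of -1.0, and 10 of 11 Snrp proteins with a median of -1.19; differences between classes were not tested.

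**Figure D1:**
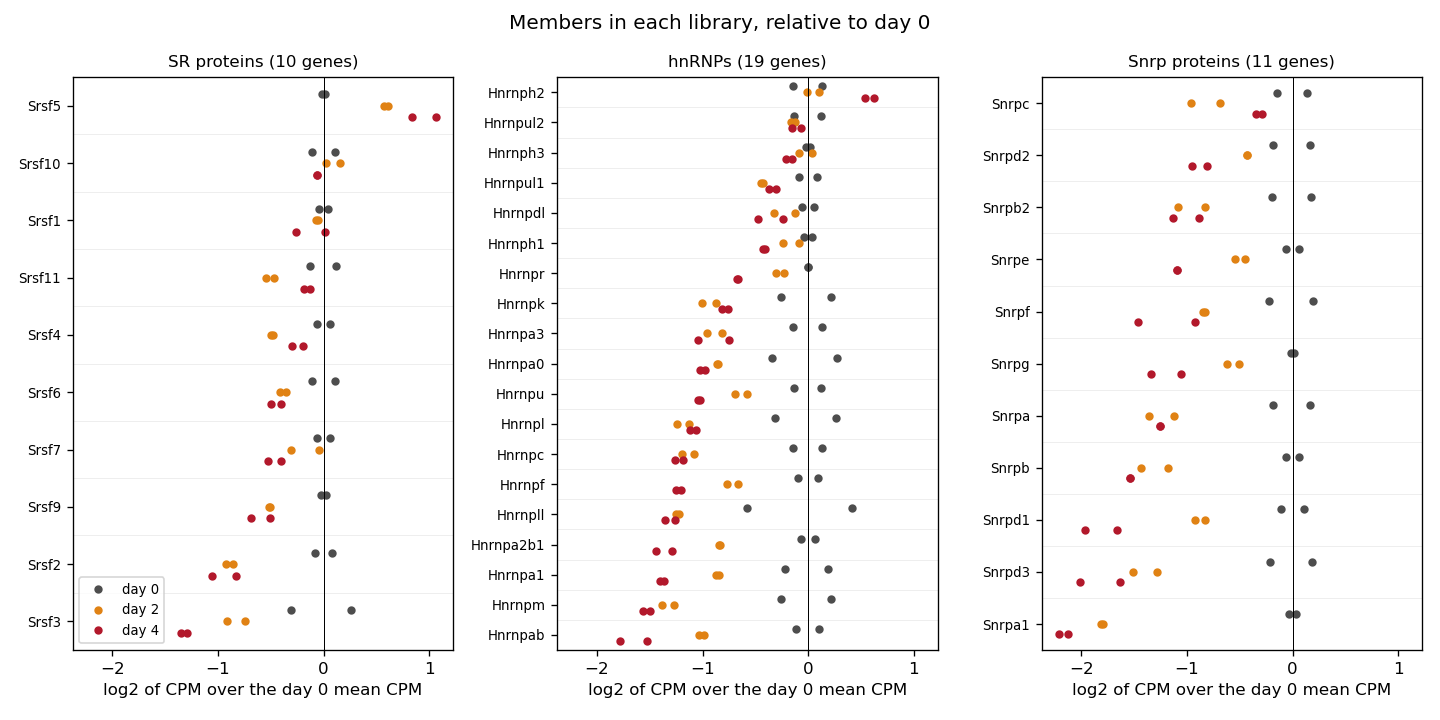
Each row is a member, each point a library, and the horizontal axis is the log2 of its CPM over the mean CPM of the 2 day 0 libraries (grey, day 0; orange, day 2; red, day 4). Most day 2 and day 4 points of hnRNPs and Snrp proteins lie left of the day 0 points, and Srsf5 and Hnrnph2 are the members called higher at day 4.

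Summed per length, as TPM (counts scaled to transcript length and library size), the classes were of unlike size before induction and shrank by unlike amounts. The 11 SR proteins summed to 2499 and 2628 TPM at day 0, 2463 and 2357 TPM at day 2, and 1994 and 2143 TPM at day 4. The 12 Snrp proteins began at a like level, 2961 and 2727 TPM, and reached 1615 and 1665 TPM at day 2 and 1116 and 1059 TPM at day 4. The hnRNPs (18 genes, without Hnrnpr, for which the matched GENCODE transcript length was not usable) summed to 7011 and 8048 TPM at day 0, 5195 and 5040 TPM at day 2, and 3915 and 3766 TPM at day 4. No 2 days overlapped in any class, although the lower SR protein sum of day 0 lay just above the higher one of day 2. Set against each other within a library, the ratio of SR protein to Snrp sums was 0.844 and 0.964 at day 0, 1.53 and 1.42 at day 2, and 1.79 and 2.02 at day 4. The ratio of hnRNP to SR protein sums went the other way, from 2.81 and 3.06 at day 0 to 2.11 and 2.14 at day 2 and 1.96 and 1.76 at day 4. These sums lean on the most abundant members and carry no test.

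**Figure D2:**
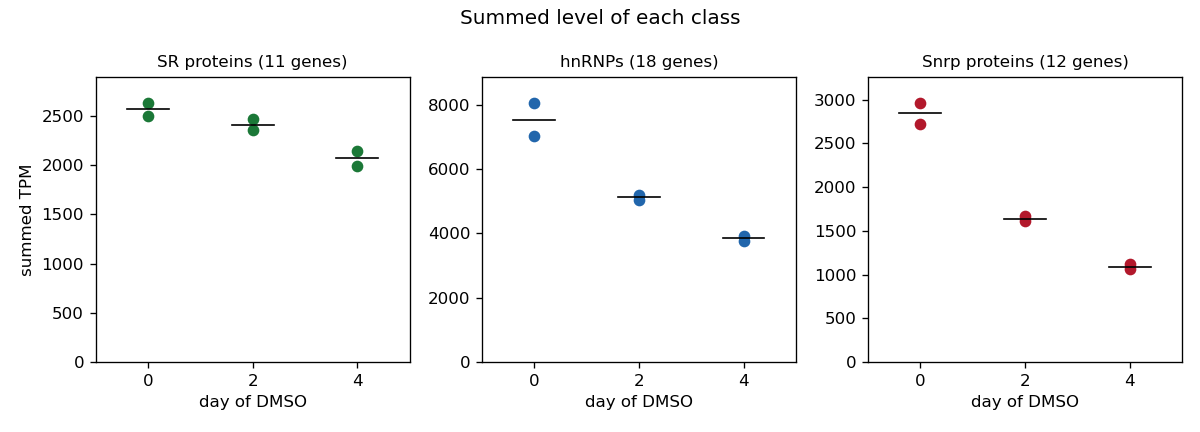
Summed level of each class in TPM (vertical axis, from 0) against day of DMSO (horizontal axis); points are libraries and bars are means of 2. The Snrp sum went from a mean of 2844 TPM at day 0 to 1087 TPM at day 4, and the SR protein sum from 2564 to 2068 TPM. TPM take no TMM scaling factors, unlike the fold changes, so their timing can differ.

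SR proteins moved in both directions. Srsf5, an SR protein that recognises exonic enhancers, had 90.7 and 92.4 CPM at day 0, 136 and 140 CPM at day 2, and 164 and 191 CPM at day 4. Each day lay above the one before without overlap. It was the single member called higher at both steps, with log2 fold changes of 0.59 for day 2 against day 0 (SE 0.11, edgeR adjusted p = 0.000799) and 0.36 at the next step (SE 0.11, edgeR adjusted p = 0.0288). For day 4 against day 0 it stood at 0.96 (SE 0.11, edgeR adjusted p = 1.57e-05). The second call was lost in 3 of 4 fits that left out a library (edgeR adjusted p up to 0.279) and with total counts (edgeR adjusted p = 0.0752). Per length, Srsf5 went from a mean of 191 TPM at day 0 to 386 TPM at day 4, close to Srsf1 at 412 TPM. Srsf1, the founding SR protein, was the most abundant of the class with a mean of 443 TPM over the libraries, and held 377 and 398 CPM at day 0, 368 and 374 CPM at day 2, and 323 and 390 CPM at day 4. Its day 0 and day 4 values overlapped, and it was called at neither step (log2 fold change for day 4 against day 0 -0.12, SE 0.12, edgeR adjusted p = 0.402).

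Srsf3, a small SR protein that also links splicing to mRNA export and polyadenylation, had the largest fall of the class. It went from 289 and 427 CPM at day 0 to 214 and 190 CPM at day 2 and 140 and 146 CPM at day 4. The day 0 cultures differed more from each other than any later pair, but both lay above all other libraries. The log2 fold change was -0.83 at the first step (SE 0.16, edgeR adjusted p = 0.00119), -0.49 at the second (SE 0.16, edgeR adjusted p = 0.0421) and -1.32 from day 0 to day 4 (SE 0.17, edgeR adjusted p = 2.93e-05). Its first step was -0.53 without replicate 2 of day 0 and -1.08 without replicate 1. Srsf2, which binds exonic enhancers of many genes, had 203 and 226 CPM at day 0, 118 and 113 CPM at day 2, and 103 and 121 CPM at day 4. Its fall lay in the first step, with a log2 fold change of -0.90 (SE 0.12, edgeR adjusted p = 6.91e-05) that was the largest of the class, and the libraries of days 2 and 4 overlapped (log2 fold change -0.04, edgeR adjusted p = 0.837). Srsf9 went from 115 and 111 CPM at day 0 to 78.8 and 79.4 CPM at day 2 and 70.2 and 79.6 CPM at day 4, with a log2 fold change of -0.59 for day 4 against day 0 (SE 0.10, edgeR adjusted p = 0.000352).

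Srsf11, an SR protein of high molecular weight, turned back. Its 147 and 124 CPM at day 0 became 97.5 and 93.1 CPM at day 2 and 124 and 119 CPM at day 4. It was called lower at the first step (log2 fold change -0.50, SE 0.11, edgeR adjusted p = 0.00258) and higher at the second (0.35, SE 0.11, edgeR adjusted p = 0.0378), and day 4 did not differ beyond the spread from day 0 (-0.15, edgeR adjusted p = 0.236). The second call was lost without any 1 of the 4 libraries compared (edgeR adjusted p from 0.138 to 0.225) and with total counts as the scale (edgeR adjusted p = 0.113). Srsf4 was called lower at day 2 (-0.49, SE 0.11, edgeR adjusted p = 0.00231) and was not called at day 4 against day 0 (-0.25, edgeR adjusted p = 0.0577). Srsf6 and Srsf7 were called lower over the whole course, with log2 fold changes of -0.45 (edgeR adjusted p = 0.0045) and -0.47 (edgeR adjusted p = 0.00469). Srsf10, an SR-like protein that represses splicing when it loses its phosphates, was called in no comparison (-0.06 for day 4 against day 0, edgeR adjusted p = 0.619).

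Srsf3 and Srsf7 are known to limit their own supply through a poison exon, a cassette exon whose inclusion puts a stop codon in frame and sends the transcript to nonsense-mediated decay. For both genes the files hold a noncoding RefSeq transcript (NR_036613 and NR_036615) beside the coding ones, and GENCODE matches each to a transcript of the nonsense-mediated decay class. These lines show where the reading frame ends, as the last 60 bases of the exon before and the poison exon up to its stop codon, with the stop codon in capitals. The exon part printed lies at chr17:29039454-29039487 on the plus strand for Srsf3, in an exon of 456 bases, and at chr17:80205054-80205081 on the minus strand for Srsf7, in an exon of 460 bases (GRCm38, GENCODE).
Srsf3: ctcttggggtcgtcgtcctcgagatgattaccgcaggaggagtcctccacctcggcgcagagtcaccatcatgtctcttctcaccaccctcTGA
Srsf7: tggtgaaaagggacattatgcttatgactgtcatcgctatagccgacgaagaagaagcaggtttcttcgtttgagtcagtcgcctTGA
Within 34 bases of the poison exon for Srsf3 and 28 bases for Srsf7, the frame reached TGA.

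Counts that the noncoding transcript of Srsf3 held beyond the coding transcript NM_013663 numbered 398 and 525 at day 0, 409 and 455 at day 2, and 553 and 769 at day 4. As a share of all counts on the noncoding transcript they made up 3.37% and 2.47% at day 0, 4.59% and 4.87% at day 2, and 10.9% and 11.6% at day 4. The share was thus higher at each later day with no overlap, while the coding transcript itself went from 11400 and 20692 counts to 4516 and 5852. The 95% Wilson interval of the lower day 4 library, 10.1% to 11.8%, lay above that of the higher day 0 library, 3.06% to 3.71%. Such intervals cover counting error only. The shares are of counts over the whole transcript and are not levels of exon inclusion. Whether the extra counts come from the poison exon was not tested.

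For Srsf7, an SR protein with a zinc knuckle that shares targets with Srsf3, the extra counts over the coding transcript NM_146083 were 480 and 421 at day 0, 689 and 744 at day 2, and 559 and 869 at day 4. Their share was 6.14% and 4.79% at day 0, 9.24% and 10.1% at day 2, and 12.1% and 13.8% at day 4. For both genes the noncoding transcript has the highest count and stands for the gene in the values given above. The coding transcript alone was called lower at the second step (log2 fold change -0.35, SE 0.12, edgeR adjusted p = 0.045), where the noncoding one was not (-0.30, SE 0.12, edgeR adjusted p = 0.0842), and from day 0 to day 4 it stood at -0.59 (SE 0.12, edgeR adjusted p = 0.00102). For Srsf3 the coding transcript stood at -1.45 over the whole course (SE 0.17, edgeR adjusted p = 1.6e-05).

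Other SR genes gave smaller shares. The longer of a pair of Srsf1 transcripts (NM_001078167) held 39 and 32 counts beyond the shorter (NM_173374) at day 0, 98 and 106 at day 2, and 132 and 217 at day 4, which is 0.253% and 0.162%, 0.639% and 0.576%, and 1.13% and 1.23% of its counts. The noncoding transcript of Srsf9, which also stands for its gene, held 5 to 23 extra counts a library, 0.0906% to 0.639% of its total. For Srsf5, whose longer transcript held 0.946% and 2.2% at day 0 and 1.27% and 1.97% at day 4, the days overlapped. These pairs were looked at after their counts had been seen, so no test is given. Higher shares at day 4 were common where they could be measured: of 39 genes whose noncoding transcript held at least 100 counts beyond the coding one, 21 (53.8%) had both day 4 libraries above both day 0 libraries and 7 had both below, so the direction of the change in Srsf3 and Srsf7 is shared by many genes. The share of reads on no annotated feature was also highest in both day 4 libraries, and its part in these shares was not tested.

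**Figure D3:**
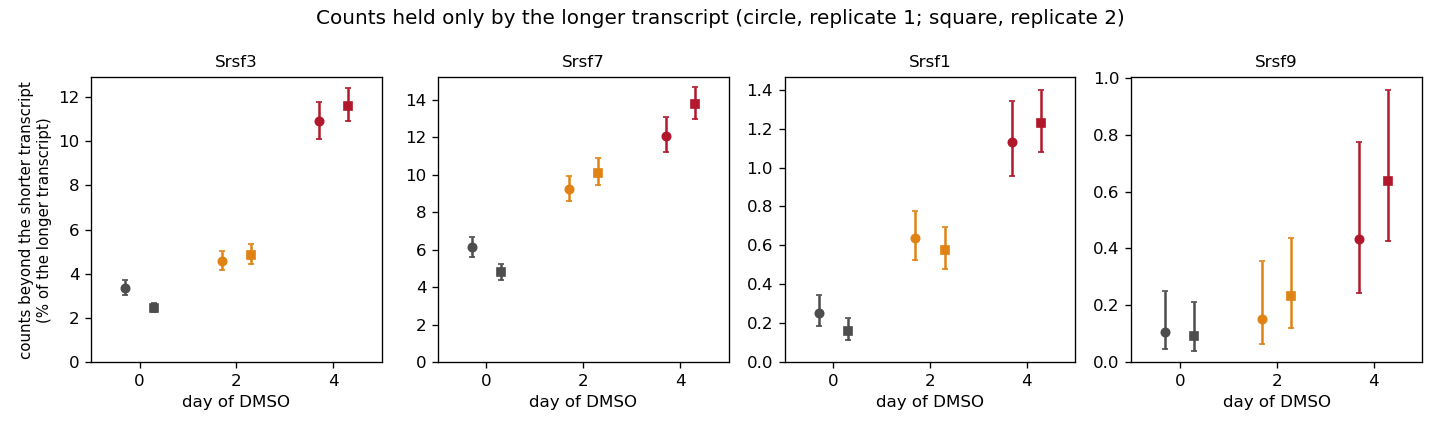
Share of counts held only by the longer or noncoding transcript (vertical axis, % of that transcript's counts, each panel with its own scale from 0) against day of DMSO for Srsf3, Srsf7, Srsf1 and Srsf9; points are libraries and bars are 95% Wilson intervals. The Srsf3 share was 2.47% to 3.37% at day 0 and 10.9% to 11.6% at day 4.

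For Srsf10, counts of 2 coding transcripts were set against each other. The counting settings are not given in the sources used here. Since a read can be counted on several transcripts, the ratio is of counts and not of isoforms. Its transcript NM_010178 held 1933 and 1870 counts at day 0, 1564 and 1590 at day 2, and 1194 and 1361 at day 4, against 2268 and 2378, 2399 and 2580, and 1783 and 2242 counts for NM_001080387. The ratio of the first to the second was 0.852 and 0.786 at day 0, 0.652 and 0.616 at day 2, and 0.67 and 0.607 at day 4, so that both later days lay below day 0 and overlapped with each other. NM_010178 was called lower over the whole course (log2 fold change -0.43, SE 0.14, edgeR adjusted p = 0.0157), whereas NM_001080387 was not called (-0.06, SE 0.11, edgeR adjusted p = 0.619). The difference between the 2 transcripts was not tested. Among the 77 tested transcripts of members, no gene had transcripts called in opposite directions.

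The hnRNPs were lower as a class by day 2. At that step 14 of 19 were called lower and 0 higher by edgeR, 0 at an unadjusted p below 0.05 and 0 by DESeq2, with a median log2 fold change of -0.83. Of all tested genes, 31.5% were called lower at day 2 than at day 0 and 31% higher, with a median of 0.01. SR proteins (6 of 10 called lower, 1 higher, median -0.44) and Snrp proteins (11 of 11 called lower and 0 higher by either tool, median -0.88) moved the same way at this step.

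Hnrnpa2b1, which binds RNA of the A2 response element and sites near methylated adenosine, was the most abundant hnRNP with a mean of 1253 TPM. A noncoding transcript of 1542 bases stands for this gene, with counts close to those of its coding transcripts, and the TPM rests on that length. Hnrnpa2b1 had 817 and 895 CPM at day 0, 478 and 481 CPM at day 2, and 351 and 316 CPM at day 4, with no overlap between days. The log2 fold change was -0.83 at the first step (SE 0.12, edgeR adjusted p = 0.000141), -0.52 at the second (SE 0.12, edgeR adjusted p = 0.00834) and -1.36 from day 0 to day 4 (SE 0.12, edgeR adjusted p = 2.31e-06). Hnrnpab, a relative of the A/B core hnRNPs, had the largest fall of the class, from 420 and 487 CPM at day 0 to 229 and 221 CPM at day 2 and 157 and 132 CPM at day 4. Both of its steps were called, at -1.01 (SE 0.13, edgeR adjusted p = 5.3e-05) and -0.64 (SE 0.13, edgeR adjusted p = 0.00413), which left it at 0.319 of its day 0 level (log2 fold change -1.65, SE 0.13, edgeR adjusted p = 8.86e-07). Hnrnpa1, the classic silencer that competes with Srsf1, fell from 116 and 154 CPM at day 0 to 75.2 and 73.8 CPM at day 2 and 51 and 52.4 CPM at day 4, with a log2 fold change over the whole course of -1.39 (SE 0.13, edgeR adjusted p = 3.5e-06).

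Hnrnpm, which binds GU-rich RNA, showed the deepest fall of the first step among hnRNPs and little after it. Its 557 and 776 CPM at day 0 became 255 and 277 CPM at day 2 and 236 and 226 CPM at day 4. The log2 fold change was -1.32 at the first step (SE 0.15, edgeR adjusted p = 3.07e-05), -0.20 at the second (SE 0.15, edgeR adjusted p = 0.331) and -1.53 from day 0 to day 4 (SE 0.16, edgeR adjusted p = 5.7e-06). Hnrnpl, which reads CA repeats, its relative Hnrnpll, Hnrnpk, which binds C-rich runs through KH domains, Hnrnpc, which binds uridine tracts, and Hnrnpa0 had the same shape: lower at day 2 with log2 fold changes from -1.24 to -0.86, and no call after. In 4 of these, replicate 2 of day 0 stood well above replicate 1: 92.2 and 183 CPM for Hnrnpll, 388 and 578 CPM for Hnrnpl, 287 and 400 CPM for Hnrnpk, and 201 and 308 CPM for Hnrnpa0. Without that library the first step of Hnrnpll went from -1.24 to -0.67 (-1.65 without replicate 1), that of Hnrnpa0 from -0.86 to -0.52 (-1.13 without replicate 1), and Hnrnpll over the whole course from -1.31 to -0.74 (-1.72 without replicate 1). The hnRNP median at the first step was -0.65 without replicate 2 of day 0. Leaving out either culture takes the spread between the 2 out of the fit, so whether a call is kept cannot settle this. Both day 0 libraries of each gene lay above all later ones.

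Hnrnpu, a scaffold protein of the nuclear matrix, was called lower at both steps and stood at 0.489 of its day 0 level by day 4 (log2 fold change -1.03, SE 0.13, edgeR adjusted p = 2.54e-05). Hnrnpr was also called at both steps, with a log2 fold change of -0.67 over the whole course (SE 0.10, edgeR adjusted p = 9.19e-05); its first call (edgeR adjusted p = 0.0334) was lost with total counts, without the filter and in a fit of only the 2 days. Hnrnpul1 (-0.34, edgeR adjusted p = 0.0148) and Hnrnpdl (-0.35, edgeR adjusted p = 0.0225) were called lower over the whole course but not with total counts (edgeR adjusted p = 0.0839 and 0.0961), and Hnrnpdl stood at -0.23 without replicate 1 of day 4. Hnrnpul2 (-0.11) and Hnrnph3 (-0.18) were called in no comparison.

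Proteins of Hnrnpf, Hnrnph1 and Hnrnph2, of the F/H group that binds G-tracts, and of Hnrnpa3 were named in the study's pull-downs. The paper calls these F/H proteins hard to tell apart there. RNA levels are another measure than protein bound to a bait, and within the F/H group they parted. Hnrnpf had 271 and 237 CPM at day 0, 160 and 149 CPM at day 2, and 107 and 110 CPM at day 4. It was called lower at both steps, at -0.72 (SE 0.11, edgeR adjusted p = 0.000232) and -0.51 (SE 0.11, edgeR adjusted p = 0.00675), and stood at 0.427 of its day 0 level. Hnrnph1 had 288 and 274 CPM at day 0, 265 and 238 CPM at day 2, and 209 and 211 CPM at day 4. Neither of its steps was called, but the whole course was (log2 fold change -0.42, SE 0.11, edgeR adjusted p = 0.00528). Hnrnph2, encoded on the X chromosome, was the single hnRNP called higher: 142 and 118 CPM at day 0, 140 and 129 CPM at day 2, and 189 and 200 CPM at day 4. Days 0 and 2 overlapped (log2 fold change 0.05, edgeR adjusted p = 0.748), and day 4 lay above both, at 0.53 against day 2 (SE 0.12, edgeR adjusted p = 0.0076) and 0.58 against day 0 (SE 0.12, edgeR adjusted p = 0.00115). Per length, Hnrnph1 remained above Hnrnpf, with means of 322 and 172 TPM at day 4, from 413 and 387 TPM at day 0. Hnrnpa3 had 95.3 and 115 CPM at day 0, 59.9 and 54.1 CPM at day 2, and 51.1 and 62.4 CPM at day 4, and was called lower at the first step (log2 fold change -0.88, SE 0.13, edgeR adjusted p = 0.000178) and not at the second (-0.01, edgeR adjusted p = 0.976).

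Some of these genes share sequence with others, which makes their counts less certain. Cut into words of 31 bases, 92.5% of the Hnrnpa3 transcript, 92.1% of Snrpf, 69.5% of Hnrnpf, 66.5% of Srsf4 and 50.8% of Snrpa occur in a GENCODE transcript of some other gene, on either strand, and 9 pseudogenes carry words of Hnrnpa3 equal in number to at least 50% of it. For 6 members, among them Srsf6, Srsf11 and Hnrnpu, no word is shared.

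Snrp proteins were lower almost throughout. Of the Sm ring, Snrpb, Snrpd1, Snrpd2, Snrpd3, Snrpe, Snrpf and Snrpg, all 7 were called lower at day 2 and all 7 at day 4 against day 0, with log2 fold changes over the whole course from -1.82 to -0.88. Of all tested genes, 31.5% were called lower at day 2 and 36.4% at day 4 against day 0. The day 2 call of Snrpd2 was lost with total counts (edgeR adjusted p = 0.13). Snrpb, which gives the B and B′ proteins of the ring, was the most abundant member of the class with a mean of 648 TPM. It had 361 and 391 CPM at day 0, 139 and 166 CPM at day 2, and 129 CPM in both day 4 libraries, a log2 fold change of -1.54 over the whole course (SE 0.12, edgeR adjusted p = 9.42e-07) that lay mostly in the first step (-1.30, SE 0.12, edgeR adjusted p = 6.2e-06). Snrpd3 had 197 and 149 CPM at day 0, 70.9 and 60.8 CPM at day 2, and 55.7 and 42.8 CPM at day 4. Its log2 fold change was -1.40 at the first step (SE 0.16, edgeR adjusted p = 2.96e-05) and -1.82 from day 0 to day 4 (SE 0.16, edgeR adjusted p = 2.45e-06).

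Snrpd1, which pairs with Snrpd2 in the ring, fell about as far at the second step as at the first. It had 111 and 95.5 CPM at day 0, 58.1 and 54.4 CPM at day 2, and 32.6 and 26.5 CPM at day 4. The log2 fold changes were -0.88 (SE 0.13, edgeR adjusted p = 0.000136) and -0.93 (SE 0.13, edgeR adjusted p = 0.000663), which left 0.286 of the day 0 level (-1.81, SE 0.13, edgeR adjusted p = 4.86e-07). Snrpd2, Snrpe and Snrpg were also called lower at both steps, with second steps of -0.45, -0.60 and -0.62. The first step of Snrpd2, at -0.43, was -0.25 without replicate 1 of day 0 and -0.59 without replicate 2. Snrpf, the least abundant of the ring per length (mean 33.7 TPM) with 14.3 and 10.7 CPM at day 0 and 6.59 and 4.53 CPM at day 4, was called lower at the first step and over the whole course (log2 fold change -1.17, SE 0.20, edgeR adjusted p = 0.000299).

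Of the proteins particular to 1 particle, Snrpa1, the U2 A′ protein, had the largest change of all members. It had 113 and 118 CPM at day 0, 32.8 and 33.3 CPM at day 2, and 24.9 and 26.4 CPM at day 4. Both later days lay far below day 0, and days 2 and 4 did not overlap. Its log2 fold change was -1.80 at the first step (SE 0.10, edgeR adjusted p = 2.74e-07), -0.37 at the second (SE 0.10, edgeR adjusted p = 0.0206) and -2.17 from day 0 to day 4 (SE 0.10, edgeR adjusted p = 3.68e-08), which left 0.222 of the day 0 level. The second call of Snrpa1 was lost without any 1 of the 4 libraries compared. Its partner in the U2 particle, Snrpb2 (U2 B″), went from 23.3 and 30.1 CPM at day 0 to 14.4 and 12.2 CPM at day 4 (log2 fold change -1.01, SE 0.16, edgeR adjusted p = 0.000168). Snrpa, the U1 A protein, went from 65.4 and 51 CPM to 24.4 and 24.3 CPM (-1.26, SE 0.14, edgeR adjusted p = 1.3e-05). Snrpc, the U1 C protein that helps U1 hold the 5′ splice site, was the exception: 10.9 and 8.93 CPM at day 0, 5.08 and 6.15 CPM at day 2, and 8.09 and 7.78 CPM at day 4. It was called lower at the first step (log2 fold change -0.81, SE 0.16, edgeR adjusted p = 0.00122) and higher at the second (0.50, SE 0.16, edgeR adjusted p = 0.0411). The second call was lost without any 1 of the 4 libraries compared (edgeR adjusted p from 0.083 to 0.308), with total counts (edgeR adjusted p = 0.0873) and with the replicate number as a block (edgeR adjusted p = 0.0541).

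Calls at the second step were fewer, and most did not hold when 1 of the 4 libraries was left out. For day 4 against day 2, 12 of the 40 members were called lower (1 SR protein, 6 hnRNPs and 5 Snrp proteins) and 4 higher (Srsf5, Srsf11, Hnrnph2 and Snrpc), with medians of -0.06, -0.14 and -0.37 for the 3 classes. Over all tested genes 16.2% were called lower and 14% higher. Of these 16 members, only Snrpd1 kept its call without each of the 4 libraries in turn. Srsf3, Srsf11, Hnrnpa1, Hnrnpr, Hnrnpu, Snrpa1, Snrpc and Snrpd2 lost their call whichever was left out. Snrpe kept it in 3 of 4, Snrpg, Hnrnpab and Hnrnpf in 2 of 4, and Hnrnph2, Hnrnpa2b1 and Srsf5 in 1 of 4. Over all genes, the fit without replicate 1 of day 2 called 318 higher and 619 lower where the full set gave 1739 and 2010. A fit of only the 4 libraries of these days called 16 members lower and 5 higher, and over its 12053 genes 2834 lower and 2592 higher. With total counts as the scale 15 members were called lower and 1 higher at this step. By contrast, 28 of the 32 calls at the first step and 31 of the 33 over the whole course held without each library. The first-step exceptions were lost without a day 2 library: Srsf6 (edgeR adjusted p = 0.112 and 0.0711 without replicates 1 and 2), Hnrnpr (0.102 and 0.217), Snrpd2 (0.0754 and 0.076) and Hnrnpul1 (0.0522 without replicate 1). Over the whole course Hnrnpdl was lost without replicate 1 of day 4 (edgeR adjusted p = 0.206) and Hnrnpul1 without either day 4 library (0.0978 and 0.0503).

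Set side by side, the 2 steps sort the members into few shapes. In 12 members both steps were called lower: Srsf3, Hnrnpa1, Hnrnpa2b1, Hnrnpab, Hnrnpf, Hnrnpr, Hnrnpu, Snrpa1, Snrpd1, Snrpd2, Snrpe and Snrpg. Over all tested genes 9.05% had this shape. In 17 members the first step alone was called lower, against 20.8% of tested genes. Srsf11 and Snrpc were called lower and then higher (1.68% of tested genes), Hnrnph2 was called higher at the second step alone (4.04%) and Srsf5 was called higher at both (8.33%). The other 7 members (Srsf1, Srsf7, Srsf10, Hnrnpdl, Hnrnph1, Hnrnph3 and Hnrnpul2) were called at neither, against 28.4% of tested genes. Since most second-step calls were lost without a library, these shapes are as uncertain as those calls.

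**Figure D4:**
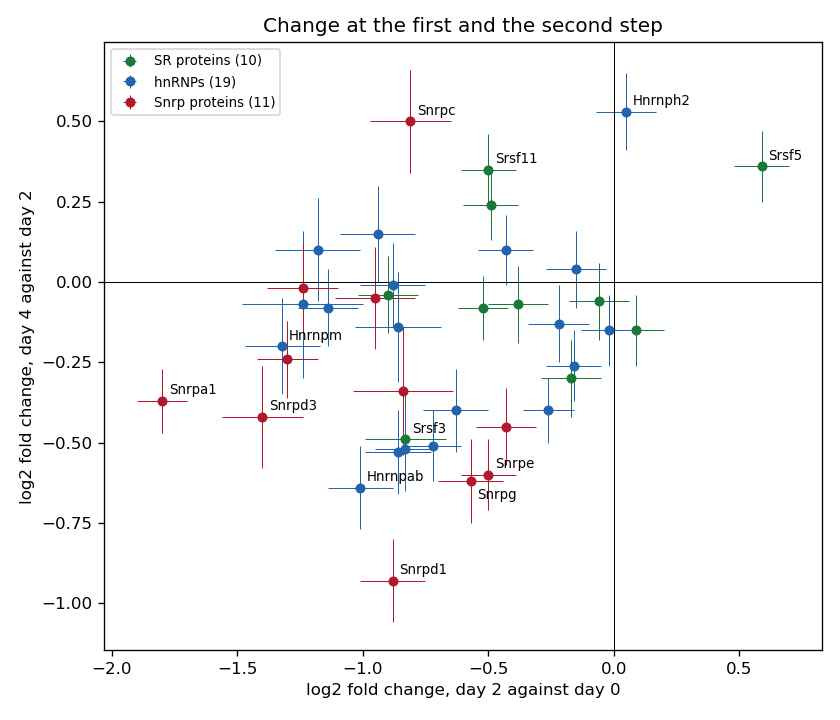
Log2 fold change at the first step (horizontal axis) against that at the second (vertical axis) for the 40 tested members, coloured by class, with standard errors as bars. Both steps share the day 2 libraries, so the axes are not independent; Srsf5 lies at 0.59 and 0.36, Snrpa1 at -1.80 and -0.37 and Snrpd1 at -0.88 and -0.93.

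Promoters of the members that rose and of those that fell furthest in each class are set out here because the members moved apart. Each line holds 150 bases, 5′ to 3′ on the gene's strand, with matches to the motifs searched in capitals. Except for Srsf5, these are the bases before the start of the gene in RefSeq (GRCm38.p6). The line of Srsf5 ends at base 80945498, where the gene is listed from base 80945495. The lines lie at chr12:80945349-80945498 (plus strand) for Srsf5, chrX:134601029-134601178 (plus strand) for Hnrnph2, chr17:29032510-29032659 (plus strand) for Srsf3, chr7:66060186-66060335 (plus strand) for Snrpa1 and chr11:51606882-51607031 (minus strand) for Hnrnpab.
Srsf5: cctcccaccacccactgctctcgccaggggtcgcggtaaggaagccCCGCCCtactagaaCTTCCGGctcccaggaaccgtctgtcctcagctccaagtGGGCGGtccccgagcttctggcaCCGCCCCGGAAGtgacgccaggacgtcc
Hnrnph2: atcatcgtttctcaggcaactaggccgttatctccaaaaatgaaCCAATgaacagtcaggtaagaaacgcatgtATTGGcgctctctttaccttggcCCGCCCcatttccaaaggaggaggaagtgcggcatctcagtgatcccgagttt
Srsf3: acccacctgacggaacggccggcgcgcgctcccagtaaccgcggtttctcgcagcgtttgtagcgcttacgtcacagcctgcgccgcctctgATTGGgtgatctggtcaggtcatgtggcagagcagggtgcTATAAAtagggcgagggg
Snrpa1: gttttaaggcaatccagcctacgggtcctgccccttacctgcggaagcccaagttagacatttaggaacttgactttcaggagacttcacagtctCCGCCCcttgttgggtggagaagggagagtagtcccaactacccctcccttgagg
Hnrnpab: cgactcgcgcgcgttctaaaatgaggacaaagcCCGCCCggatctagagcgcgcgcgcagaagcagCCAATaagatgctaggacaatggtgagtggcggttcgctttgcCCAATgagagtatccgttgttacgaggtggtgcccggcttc
The windows of Srsf5, Hnrnph2, Snrpa1 and Hnrnpab hold a GC box. Hnrnph2, Hnrnpab and Srsf3 hold a CCAAT box, and Srsf3 also holds a TATA box and no GC box. Srsf5 alone among these holds ETS motifs, 1 standing alone and 1 nearer the gene start that overlaps a GC box. Snrpd3 and Hnrnpm, which also fell far, hold none of the motifs in their 150 bases.

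Over windows from 250 bases before to 50 after the gene start, which were found for 38 members, the motifs were searched as letters on both strands. The GC box (GGGCGG) was in 27 of 38 members (71.1%), in 64.7% of the 9680 tested genes with a window and in 35.9% of all 27025 windows. A CCAAT box was in 20 members (52.6%) against 39.8% of tested genes, and 12 of these 20 were hnRNPs. An ETS motif (CCGGAAG) was in 9 members (23.7%) against 19.3%, a TATA box (TATAAA) in 5 (13.2%) against 6.87%, an E box (CACGTG) in 4 (10.5%) against 10.3%, the letters ATGGCGGC of YY1 in 3 (7.89%) against 5.46%, and the letters GCATGCGC of NRF1 in 1 (Srsf7, 2.63%) against 5.66%. A match is only a run of letters in the window, and members that rose and members that fell both carry GC boxes.

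Genes that serve the same machinery were read from 4 further lists. SR protein kinases and SR-related genes moved both ways: of 19, 8 were called higher and 5 lower for day 4 against day 0, near the 35.5% and 36.4% over all tested genes, with a median log2 fold change of 0.09. Clk1 and Clk2, kinases that phosphorylate SR proteins in the nucleus, had the largest rises, Clk1 from 40.5 and 37.7 CPM to 92.8 and 96.9 CPM (1.28, SE 0.11, edgeR adjusted p = 1.27e-06) and Clk2 from 62 and 54.4 CPM to 122 and 144 CPM (1.19, SE 0.12, edgeR adjusted p = 4.56e-06). Srpk1, the kinase that phosphorylates SR proteins in the cytoplasm, had the largest fall, from 184 and 258 CPM to 86.6 and 86.1 CPM (-1.35, SE 0.15, edgeR adjusted p = 9.72e-06), whereas its relative Srpk2 was called higher (0.90, SE 0.10, edgeR adjusted p = 1.25e-05). Rnps1, a part of the exon junction complex, was called lower (-0.78, SE 0.12, edgeR adjusted p = 0.000107).

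In the 3 lists tied to snRNPs, as in the Snrp class, most genes were called lower for day 4 against day 0, beside 36.4% of all tested genes. Of 17 genes of Sm ring assembly, which load the ring onto RNA, 14 were called lower and 2 higher (median -0.88). Gemin6 fell from 52 and 52.7 CPM to 9.34 and 6.59 CPM (-2.72, SE 0.16, edgeR adjusted p = 1.28e-07) and Strap from 222 and 224 CPM to 86.7 and 72.5 CPM (-1.48, SE 0.12, edgeR adjusted p = 1.28e-06), both of the SMN complex, while Snupn, the adaptor that brings assembled snRNPs back into the nucleus, rose from 5.66 and 6.55 CPM to 11.7 CPM in both libraries (0.93, SE 0.14, edgeR adjusted p = 0.000113) and Gemin7 was called higher (0.50, SE 0.20, edgeR adjusted p = 0.0406). Of 29 other snRNP proteins, 23 were called lower for day 4 against day 0 and 0 higher by edgeR, at an unadjusted p below 0.05 or by DESeq2 (median -0.76), with Snrnp40 (-1.21, SE 0.10, edgeR adjusted p = 1.76e-06) and Snrnp35 (-1.19, SE 0.19, edgeR adjusted p = 0.000172) among the largest falls. Their change lay in the first step, where 24 were called lower (31.5% of all tested genes), while at the second 1 was called lower and 2 higher. Of 10 LSm genes, 8 were called lower (median -1.04). These were Lsm1 to Lsm8, of the ring that binds U6 RNA or, in another form, decaying mRNA. Largest were the falls of Lsm3 (-2.11, SE 0.11, edgeR adjusted p = 6.05e-08) and Lsm4 (-1.45, SE 0.14, edgeR adjusted p = 3.85e-06). Lsm10 (-0.23, edgeR adjusted p = 0.223) and Lsm11 (0.24, edgeR adjusted p = 0.0926) were not called.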

How the data were processed

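Poly(A)-selected stranded mRNA-seq libraries of MEL cells were analysed, 2 cultures at each of days 0, 2 and 4. Per the labels and the submitters' processing notes, the authors trimmed reads with cutadapt, aligned them to mm10 with TopHat and deposited raw counts per RefSeq transcript, with HTSeq and DESeq2 also named. Reads on no feature (50.5% to 58.4% of these reads and the counts on transcripts together) were left out. Accessions were given symbols from RefSeq and GENCODE tables (268 of 32654 had none), and the transcript with the highest mean count stood for a gene.

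Counts were fitted with edgeR 4.0.16 (R 4.3.3; TMM factors, filterByExpr by day, 18351 transcripts, glmQLFit and glmQLFTest over all 6 libraries). P-values had a Benjamini-Hochberg adjustment over all transcripts, with calls below 0.05; standard errors come from the log2 fold change and F statistic. CPM used TMM-scaled library sizes. TPM used GENCODE lengths and no TMM factors. The fit was tested on simulated counts. Same-numbered cultures deviated together only slightly (correlations 0.0316, 0.0451 and 0.0791), so the numbers were not taken to pair them.

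Members and lists were chosen with earlier results of these data known. Every member is accounted for. Per class, full values are given for up to 3 called rises and falls over the whole course (average log2 CPM of at least 1), the largest at each step, members called in opposite directions, the most abundant member, and the hnRNPs named in the study's pull-downs; per list, the 2 largest rises and falls. Srpk2, and the transcript pairs of SR genes, were chosen after their values were seen. Alternatives were relative log expression factors, total counts, DESeq2 1.42.0, no filter, a replicate block, only the 2 days compared, 1 transcript per gene, a log2 fold change of at least 0.5, and leaving out each library.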

Additional observations from a re-analysis of the deposited data

How the results depend on the processing

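The class counts and medians kept their direction under DESeq2, no filter and 1 transcript per gene. Total counts move the median over all genes to 0.21, -0.09 and 0.10 for the 3 comparisons (day 2 against day 0, day 4 against day 2, day 4 against day 0), and split the calls over all genes into 5001 higher and 2881 lower, 1228 and 2532, and 4916 and 4006; class medians are to be read against that shift. With them, the medians were -0.24 (SR proteins), -0.64 (hnRNPs) and -0.68 (Snrp proteins) at the first step, -0.15 for SR proteins at the second, where 0 SR proteins and 0 Snrp proteins were called higher and 2 SR proteins lower, and -0.24 (SR) and -1.08 (Snrp) over the whole course. Relative log expression factors gave an SR median of -0.47 at the first step. A fit of only the 2 days called 2 SR proteins lower at the second step. With the replicate block, 0 Snrp proteins were called higher at the second step (the class counts were otherwise within 1.5 times). Snrpd3, not called at this step, was called lower with the block (edgeR adjusted p = 0.0147), total counts (0.0413), no filter (0.00398), only the 2 days (0.00839), DESeq2 (0.0497) and without replicate 1 of day 4 (0.0396). A log2 fold change of at least 0.5 left 0 SR proteins called in either direction, 3 Snrp proteins lower and 0 higher, and 1091 genes higher at the second step, and 3 SR proteins lower over the whole course.

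Leaving out 1 library assumes that the lone culture of a day varies like the others, and takes the spread between that day's cultures out of the fit. At the second step it gave 0 to 1 SR proteins higher and 0 lower, 0 to 1 hnRNPs higher and 0 to 3 lower, 0 Snrp proteins higher and 2 to 3 lower, and over all genes 318 to 1175 higher and 619 to 1476 lower. The SR median at this step lay between -0.16 and 0.04, turning its sign without replicate 1 of day 4, and the Snrp median between -0.38 and -0.24. At the first step medians ranged from -0.44 to -0.36 (SR), -0.90 to -0.65 (hnRNPs) and -0.99 to -0.76 (Snrp), and over the whole course from -0.37 to -0.30, -1.14 to -0.74 and -1.39 to -1.19. As a share of the coding transcript's counts, the extra counts were higher at day 4 than at day 0 by 9.68 percentage points for Srsf3 and 9.12 for Srsf7, where the share of the noncoding transcript gave 8.34 and 7.5 (7.89 to 8.79 and 6.66 to 8.34 without a library); this choice was added after seeing the data. The cause of these changes was not tested, beyond the fewer libraries or the stricter limit itself. Over single members, alternatives and comparisons, 1333 values kept their side of the threshold, 89 lost a call and 18 gained one; values called under neither setting were not read for direction.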
